A study of Homo sapiens with 4 samples.

Results

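The 9 genes described here make and load the antigen-presenting complex MHC class I: the heavy chains HLA-B, HLA-C and HLA-E, the light chain B2M, the peptide transporter subunits TAP1 and TAP2, the loading chaperone TAPBP (tapasin), and the immunoproteasome subunits PSMB8 and PSMB9. They were taken by symbol from a table of 60725 genes, and all 9 passed the filter on low counts (10 or more in 2 or more of the 4 libraries), as did 15356 genes in all. RNA-seq was performed on RPE1 cells that also express the SunTag system. RPE1 is a telomerase-immortalized human line derived from retinal pigment epithelium. The control group received 10 nM of Silencer Select Negative Control No. 2 siRNA, and the TOP2B knockdown group received 10 nM of a pool of siRNAs against TOP2B, a type II topoisomerase. Both groups were transfected again after 48 h and harvested 72 h later, on day 5, with 2 libraries per group. The libraries held between 20310259 and 23887013 counts, so that 1 CPM (the count of a gene relative to library size, scaled by TMM) rested on 20.17 to 23.95 reads. TOP2B itself had 155 and 144 CPM in control and 15.3 and 13.3 CPM after knockdown, a log2 fold change of -3.38 ± 0.14 (SE, n = 2 per group). Over all tested genes, 1023 were called higher and 642 lower after knockdown.

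MHC class I molecules carry short peptides from inside the cell to its surface, where cytotoxic T cells and natural killer cells read them. The proteasome cuts proteins into peptides, TAP moves them into the endoplasmic reticulum, tapasin and its partners load them on a heavy chain paired with beta-2-microglobulin, and aminopeptidases trim them. Interferons and NF-kappa B raise most of these genes, and most nucleated cells express them without stimulation.

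Of the 9 members, 8 lie in the MHC on chromosome 6 and B2M lies on chromosome 15. Positions are those of the canonical transcripts of GENCODE v44 on GRCh38, the build of the counts. HLA-B spans chr6:31353875-31357179 and HLA-C spans chr6:31268749-31272092, both on the minus strand, and their starts are 85087 bases apart. TAP1 (chr6:32845209-32853704, minus strand) and PSMB9 (chr6:32854192-32859851, plus strand) are divergent neighbours whose starts are 488 bases apart. PSMB8 starts 9657 bases from TAP1, and TAP2 starts 5308 bases from PSMB8. B2M spans chr15:44711517-44718145 on the plus strand.

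RefSeq promoter windows (GRCh38.p14, from 250 bases before to 50 bases after the gene start) were given for 8 members, and HLA-E was the member with none. They were searched on both strands for the ISRE core GAAANNGAA, where interferon regulatory factors bind, the interferon gamma-activated word (GAS) TTCNNNGAA, the kappa B words GGGGATTCC and GGACTTTCC, and CCAAT, the NF-Y box. Among 34943 promoters, 8.1% held the ISRE core, 7.66% the GAS word, 0.65% a kappa B word and 34.6% CCAAT. Of the 8 members, 5 held the ISRE core, 2 the GAS word, 3 a kappa B word and 5 CCAAT. These 8 members have 10 windows, since PSMB8 and TAP1 have a pair each. A match in either window of a pair counted for the member, whereas the share over all promoters counts each window. The windows of 5 members are shown, as examples of the arrangements found: the neighbouring heavy chain genes HLA-B and HLA-C, their light chain B2M, and the divergent pair TAP1 and PSMB9. Capitals mark matches to the 4 motifs.
HLA-B (chr6:31357130-31357429, minus strand): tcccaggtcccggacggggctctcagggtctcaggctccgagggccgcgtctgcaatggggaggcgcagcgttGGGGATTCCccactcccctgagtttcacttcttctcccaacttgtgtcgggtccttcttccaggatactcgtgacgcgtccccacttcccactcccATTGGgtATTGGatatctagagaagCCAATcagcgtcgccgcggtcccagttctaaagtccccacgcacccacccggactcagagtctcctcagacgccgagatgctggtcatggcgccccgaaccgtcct
HLA-C (chr6:31272043-31272342, minus strand): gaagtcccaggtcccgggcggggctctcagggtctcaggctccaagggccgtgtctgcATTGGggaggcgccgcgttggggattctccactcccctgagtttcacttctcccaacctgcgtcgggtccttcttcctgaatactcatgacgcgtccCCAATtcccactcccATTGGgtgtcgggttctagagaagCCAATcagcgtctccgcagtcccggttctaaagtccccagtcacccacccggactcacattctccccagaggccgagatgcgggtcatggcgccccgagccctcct
B2M (chr15:44711267-44711566, plus strand): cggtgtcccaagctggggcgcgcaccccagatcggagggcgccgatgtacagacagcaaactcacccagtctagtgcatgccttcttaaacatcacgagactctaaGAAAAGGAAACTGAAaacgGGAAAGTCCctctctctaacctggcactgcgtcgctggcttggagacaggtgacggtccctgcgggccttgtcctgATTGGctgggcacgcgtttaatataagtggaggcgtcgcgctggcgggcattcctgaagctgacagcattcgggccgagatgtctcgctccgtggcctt
TAP1 (chr6:32853655-32853954, minus strand): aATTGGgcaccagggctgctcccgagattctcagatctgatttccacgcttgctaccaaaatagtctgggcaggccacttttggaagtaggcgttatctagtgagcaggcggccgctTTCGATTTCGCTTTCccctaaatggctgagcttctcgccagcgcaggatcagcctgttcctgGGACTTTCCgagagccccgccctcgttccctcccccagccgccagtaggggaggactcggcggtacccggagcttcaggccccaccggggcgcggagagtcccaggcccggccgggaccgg
PSMB9 (chr6:32853942-32854241, plus strand): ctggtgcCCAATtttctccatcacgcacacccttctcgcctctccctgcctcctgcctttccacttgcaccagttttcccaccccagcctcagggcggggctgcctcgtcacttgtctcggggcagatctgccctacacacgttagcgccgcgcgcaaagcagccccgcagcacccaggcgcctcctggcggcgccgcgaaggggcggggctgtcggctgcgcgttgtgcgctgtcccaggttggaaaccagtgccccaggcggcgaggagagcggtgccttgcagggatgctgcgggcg
HLA-B held a kappa B word at position -177 from the gene start and 3 CCAAT matches. HLA-C held 4 CCAAT matches and no exact kappa B word. In the windows shown, B2M and TAP1 each held 2 overlapping ISRE cores and 1 kappa B word. The second TAP1 window (chr6:32852712-32853011) held a GAS word at -189, and PSMB9 held CCAAT alone, at -243. The TAP1 and PSMB9 windows overlap by 13 bases. The CCAAT of PSMB9 at -243 and that of TAP1 at -249 are the same site within this overlap. It was counted for both members. A match describes these letters only, and no binding was measured.

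In the main fit, which took no account of the replicate number, none of the 9 genes passed the threshold after TOP2B knockdown. At an adjusted p below 0.05 (edgeR's quasi-likelihood test, Benjamini-Hochberg over all tested genes), 0 members were called higher, against 6.66% of all tested genes, and 0 lower, against 4.18%; in either direction the background was 10.8%. At an unadjusted p below 0.05 there were 2 members, HLA-B and TAP1, against 26.3% of all tested genes. DESeq2 also called 0 members, against 11.8% of the genes to which it gave an adjusted p. Other fits called some members. With no filter on counts, edgeR called HLA-B higher (adjusted p = 0.0142). With the replicate number as a block, edgeR called HLA-B and HLA-E higher and TAP1 lower. That fit called 3440 of all 15356 tested genes higher and 3346 lower. The median log2 fold change was 0.07 over the members and -0.0029 over all tested genes. Every one of the 9 intervals (95%) lay within 1 on the log2 scale, and 2 of them, those of HLA-B and TAP1, reached a 1.5-fold change. In bulk RNA, fewer cells expressing a gene and less RNA per cell cannot be told apart.

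**Figure D1:**
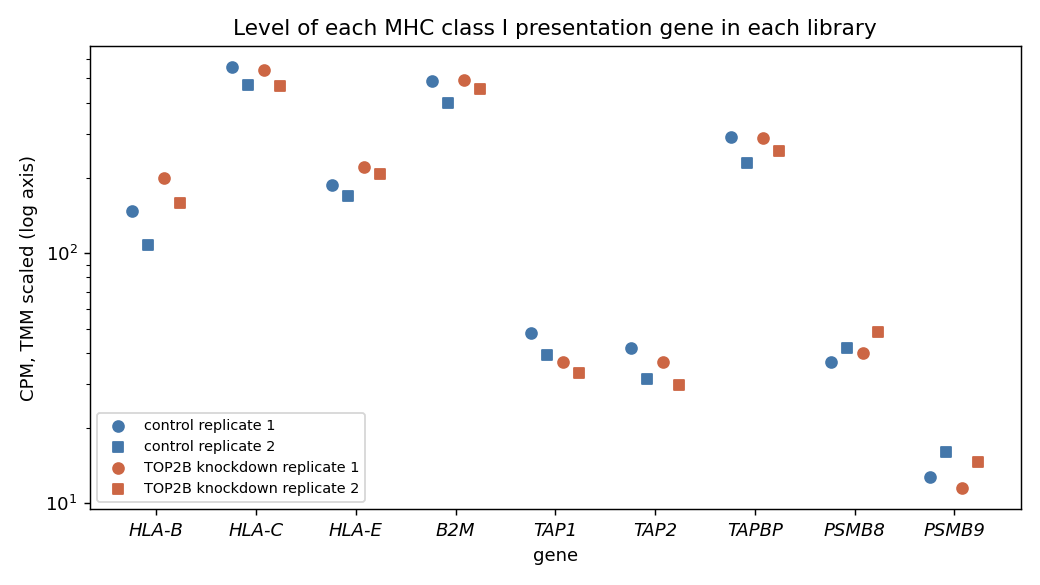
CPM (log axis) of the 9 genes in each of the 4 libraries, with control in blue, TOP2B knockdown in orange, replicate 1 as circles and replicate 2 as squares. HLA-B and HLA-E had both knockdown libraries above both control libraries, TAP1 had both below, and the other 6 genes overlapped.

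None of the 3 heavy chains passed the test in the main fit. HLA-B, a classical heavy chain that presents peptides to cytotoxic T cells, had 147 and 108 CPM in control and 199 and 159 CPM after knockdown. Both knockdown libraries were above both control libraries, and control replicate 2 was the lowest of the 4. Its log2 fold change was 0.49 ± 0.17 (SE, n = 2 per group), with a 95% interval from 0.11 to 0.87 and an adjusted p of 0.101. Among all tested genes, 22% had a change of this size or more in either direction. Without control replicate 1 the value was 0.73 (adjusted p = 0.0115), and without TOP2B knockdown replicate 2 it was 0.63 (adjusted p = 0.0325), so that HLA-B was called when either of these libraries was left out. It was 0.28 (adjusted p = 0.525) without control replicate 2 and 0.32 (adjusted p = 0.42) when knockdown replicate 1 was left out. HLA-C, the other classical heavy chain and a ligand of natural killer cell receptors, had 555 and 472 CPM in control and 541 and 465 CPM after knockdown. The groups overlapped, and the log2 fold change was -0.03 ± 0.15 (interval -0.37 to 0.31, adjusted p = 0.929). HLA-E, a non-classical heavy chain that presents leader peptides of other heavy chains to natural killer cells, had 188 and 169 CPM in control and 221 and 207 CPM after knockdown. Both knockdown libraries were above both controls, with a log2 fold change of 0.26 ± 0.13 (interval -0.02 to 0.55, adjusted p = 0.228).

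B2M, the light chain shared by all these heavy chains, had 487 and 398 CPM in control and 494 and 452 CPM after knockdown. The groups overlapped (log2 fold change 0.10 ± 0.15, interval -0.24 to 0.44, adjusted p = 0.744).

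TAP1, the first subunit of the peptide transporter, had the most negative change of the members in the fit of all 4 libraries, -0.31, but ran from -0.46 to -0.15 when 1 library was left out, and PSMB9 was then lower without control replicate 1 (-0.30) or knockdown replicate 2 (-0.34). It had 48.1 and 39.0 CPM in control and 36.9 and 33.2 CPM after knockdown, so that both knockdown libraries were below both controls. The log2 fold change was -0.31 ± 0.14, with an interval from -0.62 to -0.0031 and an adjusted p of 0.185. TAP2, its partner in the transporter, had 41.6 and 31.5 CPM in control and 36.9 and 29.7 CPM after knockdown, and the groups overlapped (log2 fold change -0.13 ± 0.16, adjusted p = 0.658). TAPBP, which bridges TAP and the heavy chain, had 291 and 230 CPM in control and 288 and 257 CPM after knockdown, again overlapping (log2 fold change 0.07 ± 0.15, adjusted p = 0.827).

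PSMB8 and PSMB9 are the interferon-inducible subunits that replace PSMB5 and PSMB6 in the immunoproteasome. PSMB8 had 36.9 and 41.8 CPM in control and 39.8 and 48.2 CPM after knockdown (log2 fold change 0.16 ± 0.14, interval -0.15 to 0.47, adjusted p = 0.505), or from 0.0022 to 0.30 when 1 library was left out. PSMB9 had 12.8 and 16 CPM in control and 11.5 and 14.6 CPM after knockdown (log2 fold change -0.14 ± 0.18, interval -0.54 to 0.26, adjusted p = 0.667). Both genes overlapped between the groups.

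**Figure D2:**
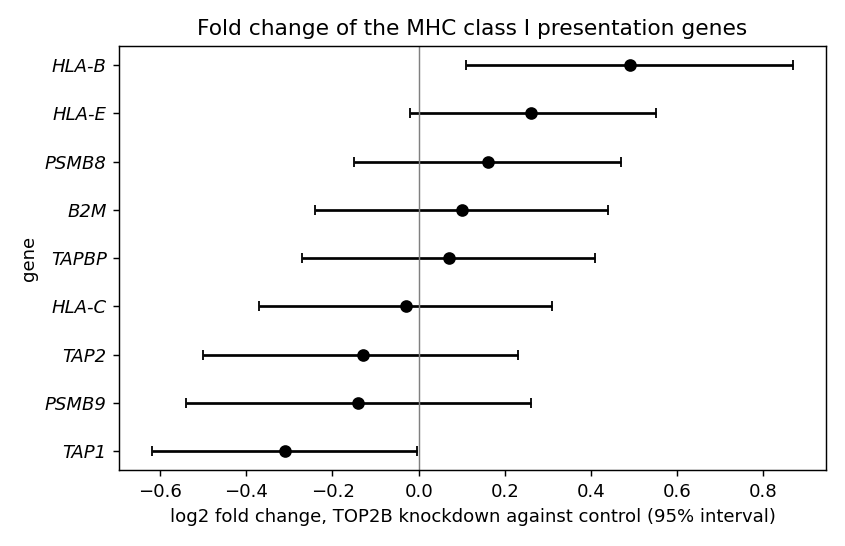
Log2 fold change of each gene after TOP2B knockdown against control, with the 95% interval of edgeR's fit as bars (2 libraries per group). HLA-B is highest at 0.49 and TAP1 lowest at -0.31, and the intervals of the other 7 genes include 0.

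The groups did not overlap for 3 of the 9 members, HLA-B, HLA-E and TAP1, against 54.3% of all tested genes. Replicates differed in a pattern the members shared: 7 of the 9, all but PSMB8 and PSMB9, were higher in replicate 1 than in replicate 2 of both groups, as were 38.9% of all tested genes. PSMB8 and PSMB9 were higher in replicate 2 of both groups, as were 16 of 19 other proteasome genes and 37.1% of all tested genes. Of 9478 other genes of at least 10 CPM, those with profiles over the 4 libraries nearest to the members' median profile included TMEM161A, UBAC2, ORC2 and MFSD14B, at Euclidean distances from 0.0244 to 0.0359 on the log2 CPM scale. The members' own distances to this median ran from 0.0619 for B2M to 0.548 for PSMB9.

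Per kilobase of the canonical transcript, the members' levels in control ran from 469 ± 66.4 CPM per kb for B2M and 333 ± 38.1 for HLA-C (SD, n = 2) to 6.48 ± 1.28 for TAP2. HLA-B, at 83.0 ± 18 CPM per kb, overlapped its neighbour in this order, TAPBP (75.5 ± 12.4), and TAPBP overlapped HLA-E (70.0 ± 5.09). PSMB8 followed at 35.0 ± 3.08, and TAP1 (16.2 ± 2.41) overlapped PSMB9 (14.2 ± 2.25). After knockdown HLA-B, at 117 ± 18.5 CPM per kb, did not overlap TAPBP or HLA-E, while HLA-E (84.0 ± 4.10) overlapped TAPBP (79.0 ± 6.31). These overlaps compare values across libraries. Within each control library HLA-B was also above TAPBP and HLA-E. The values were 95.7 against 84.2 and 73.6 in replicate 1, and 70.3 against 66.7 and 66.4 in replicate 2. HLA-E was below TAPBP in both control libraries and above TAPBP in both knockdown libraries (86.9 against 83.5, and 81.1 against 74.6).

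Ratios of counts within a library do not depend on the scaling between libraries. The 8 pairs below were chosen after the values were seen. With 2 libraries against 2 an exact two-sided permutation test cannot give a p below 0.333, the value for each pair. How often ratios of other gene pairs separate the groups was not computed. Of single tested genes, 54.3% had no overlap between the groups. The ratio of HLA-B to HLA-C was 0.265 and 0.229 in control and 0.368 and 0.341 after knockdown, a log2 difference of 0.53. PSMB8 stood at 0.400 and 0.355 of its constitutive counterpart PSMB5 in control and at 0.529 and 0.539 after knockdown, a log2 difference of 0.50. The ratio of PSMB9 to PSMB6 went from 0.122 and 0.128 to 0.138 and 0.140 (log2 difference 0.15). PSMB10, the remaining immunoproteasome subunit, stood at 0.0426 and 0.0305 of PSMB7 in control and at 0.0590 and 0.0571 after knockdown (log2 difference 0.69, or 0.45 without control replicate 2). HLA-B to B2M (log2 difference 0.40) and HLA-E to B2M (0.16) were also above both controls in both knockdown libraries. HLA-C to B2M went from 1.14 and 1.19 to 1.10 and 1.03 (-0.13) and TAP1 to TAP2 from 1.16 and 1.24 to 0.999 and 1.12 (-0.18), with both knockdown libraries below both controls. In the denominators, PSMB5 had a log2 fold change of -0.35 ± 0.15 (adjusted p = 0.165), PSMB6 of -0.29 ± 0.15 (adjusted p = 0.248) and PSMB7 of -0.42 ± 0.13 (adjusted p = 0.0729), and edgeR called none. DESeq2 called PSMB7 lower (-0.43, adjusted p = 0.0381), as did edgeR with no filter on counts (adjusted p = 0.0444).

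**Figure D3:**
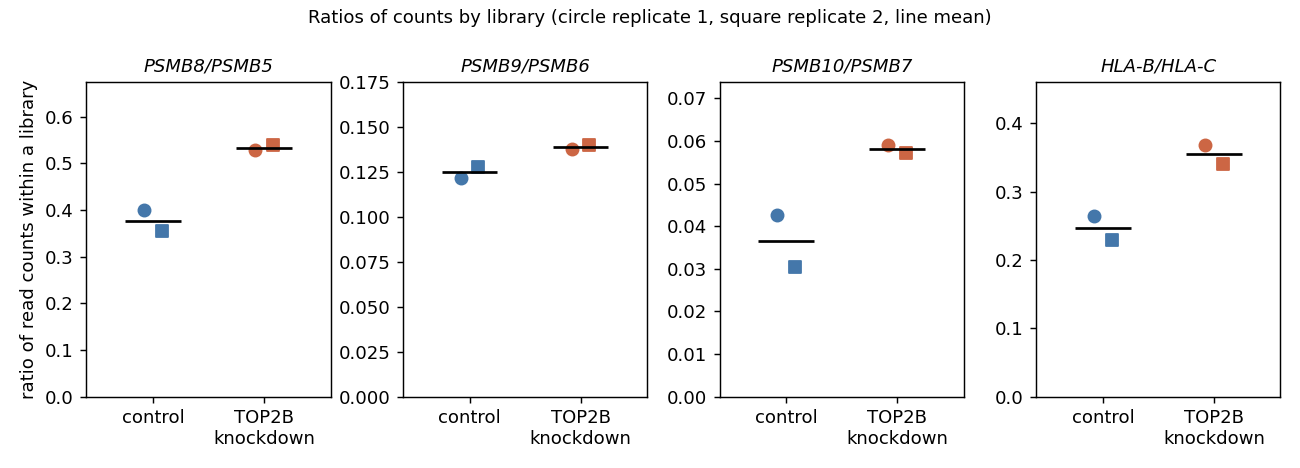
Ratio of read counts within each library for 3 pairs of immunoproteasome and constitutive subunits and for HLA-B to HLA-C, with circles for replicate 1, squares for replicate 2 and lines at the group mean. In these 4 panels both TOP2B knockdown libraries are above both controls, with means for PSMB8/PSMB5 of 0.377 and 0.534.

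Relatives of the listed heavy chains were also examined. Of 15 other heavy chain genes and pseudogenes, 4 were tested, 1 was called higher and 0 lower (6.66% and 4.18% over all tested genes). HLA-F, a non-classical heavy chain, rose from 0.877 and 0.439 CPM to 2.88 and 2.38 CPM (log2 fold change 1.98 ± 0.36, adjusted p = 0.00873), on 10 to 61 counts per library. Of its exon bases, 41.96% overlap genes on the opposite strand, and no source states how strand was used in counting, so its reads are uncertain; its antisense gene HLA-F-AS1 had 33 to 40 counts. HLA-G was not tested, with 0 or 1 count per library. Of 12 class I-like and natural killer ligand genes, 9 were tested, 2 were called higher and 2 lower, beside 6.66% and 4.18% of all tested genes. MICB, a stress-induced ligand of the receptor NKG2D, rose from 22.5 and 18.8 CPM to 52.2 and 51.9 CPM (1.33 ± 0.13, adjusted p = 0.000624). MR1, which presents vitamin B metabolites, rose by 0.58 ± 0.14 (adjusted p = 0.0284, or 0.183 when control replicate 2 and 0.0772 when knockdown replicate 1 was left out). ULBP2, another NKG2D ligand, had a log2 fold change of -0.65 ± 0.17 (adjusted p = 0.0345, or 0.146 when control replicate 1 and 0.117 when knockdown replicate 2 was left out). RAET1G, of the same family, had -0.85 ± 0.24 (adjusted p = 0.048), and was not called without any 1 of the 4 libraries (0.0579 to 0.173), under DESeq2 (0.132) or without normalization factors (0.0504); 25.33% of the 65-base windows of ULBP2 and 17.77% of those of RAET1G also occur in other genes.

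Among 11 peptide loading and trimming genes, all tested, 0 were called higher and 1 lower (6.66% and 4.18% over all tested genes). Their median log2 fold change was -0.27. The called gene was LNPEP, an endosomal aminopeptidase (-0.74 ± 0.20, adjusted p = 0.0473, or 0.0739 when control replicate 1 and 0.143 when knockdown replicate 2 was left out). The trimming enzyme ERAP1 (-0.13 ± 0.15), the chaperone CALR (-0.03 ± 0.17) and the tapasin relative TAPBPL (-0.45 ± 0.17, adjusted p = 0.121) were not called. Of 19 further proteasome genes, all tested, edgeR called 0, beside 10.8% of all tested genes, and DESeq2 called PSMB7 as given above. At an unadjusted p below 0.05 in edgeR there were 8, against 26.3% of all tested genes. A positive log2 fold change was found for 3 of the 19, against 7640 of all 15356 tested genes, and the median was -0.19. The activator subunits PSME1 (0.41 ± 0.13, adjusted p = 0.074) and PSME2 (-0.02 ± 0.12) did not pass the test.

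Of 20 transcriptional regulators of class I genes, all tested, 3 were called higher and 1 lower (6.66% and 4.18% over all tested genes). NLRC5, the class I transactivator, had 37.7 and 33.2 CPM in control and 36.3 and 31.5 CPM after knockdown (-0.07 ± 0.13, interval -0.36 to 0.23, adjusted p = 0.803). CIITA, the class II transactivator, had a log2 fold change of -1.09 ± 0.27 (adjusted p = 0.0318, or 0.125 without TOP2B knockdown replicate 2). Called higher were RFXANK, a subunit of the factor RFX (0.56 ± 0.14, adjusted p = 0.0329, or 0.119 when control replicate 1 and 0.204 when knockdown replicate 2 was left out), the NF-kappa B subunit NFKB1 (0.50 ± 0.13, adjusted p = 0.0386, or 0.278 when control replicate 2 and 0.139 when knockdown replicate 1 was left out) and the Polycomb methyltransferase EZH2 (0.58 ± 0.12, adjusted p = 0.0156, or 0.111 without control replicate 2). The interferon pathway factor IRF1 (-0.37 ± 0.13, adjusted p = 0.0939) was not called, and both knockdown libraries were below both controls.

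Of 17 interferon ligands, receptors and kinases, 12 were tested, 1 was called higher and 0 lower (6.66% and 4.18% over all tested genes). The receptor subunit IFNLR1 rose from 1.71 and 1.14 CPM to 5.95 and 4.66 CPM (1.89 ± 0.27, adjusted p = 0.00302). Of 26 interferon-stimulated genes, 20 were tested, 1 was called higher and 4 lower, beside the same 6.66% and 4.18%. IFIT1 had -1.04 ± 0.15 (adjusted p = 0.00321) and IFI6 -0.86 ± 0.15 (adjusted p = 0.00691). IFIT2 had -0.83 ± 0.17 (adjusted p = 0.0143, or 0.0639 without TOP2B knockdown replicate 1), and IFI44L had 0.60 ± 0.15 (adjusted p = 0.0352), and was not called without any 1 of the 4 libraries (0.0936 to 0.117). Of 12 class II and invariant chain genes, 3 were tested and 0 were called in either direction, beside 10.8% of all tested genes.

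**Figure D4:**
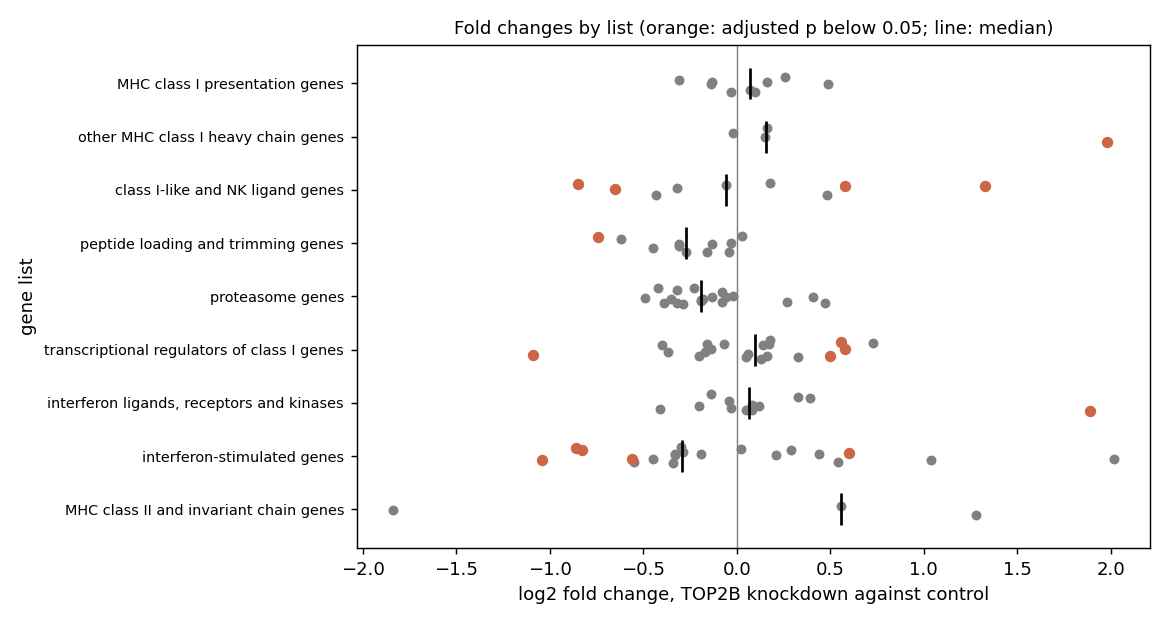
Log2 fold change of every tested gene of the 9 listed genes and of each pathway list, with genes at an adjusted p below 0.05 in orange and the list median as a line. None of the 9 listed genes is orange, and their median is 0.07.

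Within the extended MHC on chromosome 6, 123 of 378 genes were tested, 11 were called higher and 2 lower (background 6.66% and 4.18%), and the median log2 fold change was 0.03. None of the 8 members in it was among the 13 called. The genes called higher included HLA-F and MICB, on either side of HLA-E in the region.

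**Figure D5:**
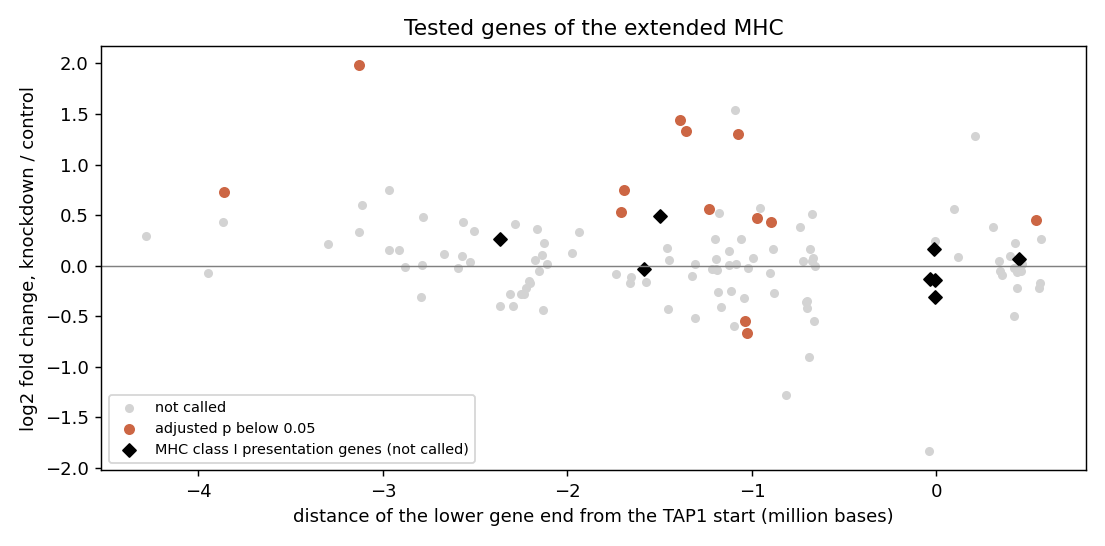
Log2 fold change of the 123 tested genes of the extended MHC against the distance of the gene's lower end from the TAP1 start, with called genes in orange and the members as black diamonds. Of the 13 called genes, 10 lie between -1711377 and -894700 bases, a stretch with 41 tested genes, beside 10.8% called of all tested genes. The ends of this stretch are themselves called genes, so its share of calls depends on how it was drawn and was not tested. The 8 members lie between -0.31 and 0.49.

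The 3' UTR word GCAACC, a word known from earlier results on these data, occurs in 23.4% of 12517 tested genes with a 3' UTR. The median log2 fold change was 0.0582 for genes with it and -0.038 for genes without it. Since the word came from these same data, this difference is no independent support for it. The length of the 3' UTR was not taken into account. Of the members it occurs in HLA-E and TAPBP, once each. The site in HLA-E is shown with the word in capitals.
HLA-E: aggcaccagcctGCAACCcattcgagcagc
The part of this word in the members' values was not tested.

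Some members share sequence with other genes. Of the exon bases of HLA-B, 23.7% overlap a pseudogene on the opposite strand, which had 0 to 2 counts per library. Of those of TAP1, 21.49% overlap PSMB8-AS1 on the opposite strand, with 18 to 22 counts. Of those of TAP2, 35.85% overlap a gene on the same strand that had 0 counts in every library. The other 6 members overlap none. These overlaps are those of GENCODE v44, whereas the paper states that genes were counted during mapping with an earlier Gencode release. How reads over 2 genes were counted is not given in the sources used here. The low counts of these partners therefore do not show that all reads of the 3 members were kept. The count of TAP2 and its level per kb are uncertain for this reason. The reads were aligned to reference alleles, and the alleles of RPE1 at these polymorphic genes were not analysed here. As a check of the cell type, 5 markers of epithelial and RPE1 cells were summed: KRT8, KRT18, KRT7, VIM and CDH2. They summed to between 2749.2 and 3051.7 CPM in control and between 2419.9 and 2746.7 CPM after knockdown. Of this, VIM and CDH2, which are not specific to epithelium, had means of 994 and 280 CPM in control. Of 7 pigment epithelium markers, 2 reached a mean of 1 CPM, and RPE65 was at 0 in all libraries. The 9 leukocyte markers, from cells that express the members highly, summed to between 2.88 and 3.73 CPM in control and between 3.32 and 3.54 CPM after knockdown, most of it from CSF1R, and CD3E was at 0. The 3 endothelial markers summed to at most 1.63 CPM.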

How the data were processed

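RNA-seq covered 2 control and 2 TOP2B knockdown libraries. The authors checked reads with FastQC 0.11.6, aligned them to GRCh38 with STAR 2.5.4a and deposited raw counts per gene, without normalization. Names and versions of these tools are from the submitters' processing notes. A further 4 columns repeat these values and were left aside. A tag in the column names marks stranded, paired-end reads, whereas single-end reads are given in the methods, and how strand was used in counting is not given in the sources used here.

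From the deposited counts, 15356 of 60725 genes, each with 10 or more counts in 2 or more libraries, were tested with edgeR 4.0.16 (glmQLFit and glmQLFTest, TMM, Benjamini-Hochberg over all tested genes) in R 4.3.3. The common dispersion was 0.0117. Calls were made at an adjusted p below 0.05. Standard errors and 95% intervals came from the same fit. Total counts of 20310259 to 23887013 per library set the precision. Intervals cover the spread between these libraries, which the methods call independent biological replicates, while the labels do not name separate cultures. DESeq2 1.42.0 was an alternative, beside other scalings, filters, the replicate block and fits without each library. The scripts were tested on simulated data.

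The members and lists were chosen with earlier results of these data known, so no list was tested. Named were the members, TOP2B, the called genes of each list (at most 4, by adjusted p), a fixed set (HLA-F, HLA-G, PSMB10, NLRC5, IRF1, PSMB5, PSMB6, PSMB7, ERAP1, CALR, TAPBPL, PSME1 and PSME2), and the 5 genes with the nearest profile. Some items under this rule are not reported here. The extended MHC is chromosome 6 from 28500000 to 33500000. Positions came from GENCODE v44 and promoters from RefSeq.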

Additional observations from a re-analysis of the deposited data

How the results depend on the processing

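Under other scalings and filters and under DESeq2, no member changed direction, and 1 call appeared: without a filter on counts HLA-B was called (0.49, adjusted p = 0.0142), giving 1 member called higher. Without that filter 1358 genes were called higher and 985 lower. Calls on other named genes were lost under DESeq2 for RAET1G (adjusted p = 0.132) and IFI44L (0.0779), without normalization factors for RAET1G (0.0504) and LNPEP (0.0547), and at a mean of 100 counts for LNPEP (0.0832), ULBP2 (0.0515) and NFKB1 (0.0508). Without 1 library, where the lone sample is assumed to vary like the other group, the members called higher ran from 0 to 1. HLA-B ran from 0.28 to 0.73 in log2 fold change, TAP1 from -0.46 to -0.15, PSMB8 from 0.0022 to 0.30, HLA-C from -0.14 to 0.09, B2M from -0.04 to 0.25, TAP2 from -0.32 to 0.08, TAPBP from -0.09 to 0.25 and PSMB9 from -0.34 to 0.03. Among the other named genes NLRC5 ran from -0.17 to 0.03, ERAP1 from -0.30 to 0.07, CALR from -0.15 to 0.08 and PSME2 from -0.09 to 0.06. Counts for the extended MHC, added after seeing the data, ran from 5 to 7 genes called higher and from 0 to 2 called lower. There DESeq2 called 1 lower, and no filter gave 4 lower. The replicate numbers are shared by the labels with no stated culture or day. Deviations from the group means correlated over genes at 0.479 between libraries of the same number. With 2 libraries per group the value for the other number, -0.479, is the negative of this by construction. Both pairs of the same number give the same value for this reason. With the replicate number as a block, 3440 of 15356 tested genes were called higher and 3346 lower, 30 and 16 of them in the extended MHC. By this edgeR fit 2 members were called higher, HLA-B (adjusted p = 1.87e-06) and HLA-E (0.000249), and 1 lower, TAP1 (0.00156). The causes of these changes were not tested. With 2 libraries per group the members' 95% intervals limit what could be seen.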
